A study of Mus musculus with 6 samples.

Results

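Vitronectin is a glycoprotein of plasma and extracellular matrix, and 9 genes of its circle were examined among the 55414 genes of the count tables. They are Vtn itself, the integrin chains that bind it (Itgav, Itgb1, Itgb3, Itgb5, Itgb6 and Itgb8), and the urokinase system that meets it at the cell surface (Plaur and Plau). The set was selected on the knockout against control contrast: Vtn for its lower counts in Trip12 knockout libraries, and the others as partners of its product, with their values in this contrast already known. The group difference of these genes is therefore described by its size and spread, with no test of it used as support. All 9 were found by Ensembl identifier, and 8 passed the filter on low counts. Itgb3 did not.

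The 6 libraries came from pancreatic acinar cells, which make and secrete digestive enzymes, of adult mice. All animals carried the Pdx1Cre transgene, in which the Pdx1 promoter, active in the progenitors of the pancreas, drives Cre recombinase. The 3 control preparations were Pdx1Cre;Trip12+/+ and the 3 knockout preparations were Pdx1Cre;Trip12fl/fl, and none was treated. TRIP12 is an E3 ubiquitin ligase, an enzyme that marks proteins for degradation. The labels call the preparations biological replicates and do not say whether each came from 1 animal, so the tests measure the spread between these preparations.

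Vitronectin is made mostly by the liver and is laid down in matrix and at sites of injury. Cells hold on to it through an Arg-Gly-Asp motif that is read by integrins, receptors built of 1 alpha and 1 beta chain. The alpha-v chain, encoded by Itgav, pairs with the beta chains of Itgb1, Itgb3, Itgb5, Itgb6 and Itgb8, while the Itgb1 chain also serves many other alpha chains. The urokinase receptor, encoded by Plaur, binds the somatomedin B domain of vitronectin and also holds urokinase, the product of Plau, a protease that turns plasminogen into plasmin.

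The promoters of Vtn and of its most abundant receptor chain, Itgb1, show the contrast in start regions among these genes. They are given from RefSeq on GRCm38.p6, from 250 bases before to 50 bases after the annotated start, with matches to 5 of 6 motifs, on either strand, in capitals. The motifs in capitals are the TATA box (TATAAA), the CCAAT box (its name is its letters), the GC box (GGGCGG), the AP-1 site (TGANTCA) and the HNF1 site. The E-box (CANNTG) was also searched and is left in lower case, since 72.3% of all windows held it. The window of Itgb6 is shown as well, since that beta chain had the highest fitted log2 fold change of the 8 tested members. No count is assigned to these windows.
Vtn, chr11:78498870-78499169, plus strand: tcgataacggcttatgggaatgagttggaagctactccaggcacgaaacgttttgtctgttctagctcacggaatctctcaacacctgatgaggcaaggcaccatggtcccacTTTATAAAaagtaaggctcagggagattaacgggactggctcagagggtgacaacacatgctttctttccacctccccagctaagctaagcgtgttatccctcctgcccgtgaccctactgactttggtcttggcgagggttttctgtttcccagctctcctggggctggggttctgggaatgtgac
Itgb1, chr8:128685404-128685703, plus strand: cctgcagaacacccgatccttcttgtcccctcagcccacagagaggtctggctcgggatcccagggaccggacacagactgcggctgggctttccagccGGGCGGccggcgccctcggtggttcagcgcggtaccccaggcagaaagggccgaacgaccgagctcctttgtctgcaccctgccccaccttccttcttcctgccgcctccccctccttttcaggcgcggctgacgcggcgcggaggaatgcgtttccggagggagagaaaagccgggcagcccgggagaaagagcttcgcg
Itgb6, chr2:60722554-60722853, minus strand: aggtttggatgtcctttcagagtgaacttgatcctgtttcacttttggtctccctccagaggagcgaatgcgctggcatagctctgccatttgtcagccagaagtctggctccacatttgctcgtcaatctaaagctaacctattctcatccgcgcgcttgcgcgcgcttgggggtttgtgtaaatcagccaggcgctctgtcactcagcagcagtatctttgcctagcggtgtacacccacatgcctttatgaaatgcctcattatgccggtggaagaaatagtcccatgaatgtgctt

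The Vtn window had a GC content of 51.67% and 9 CpG dinucleotides, near the medians of 52.67% and 7 over 32851 windows. The Itgb1 window had 67.33% and 27 CpG, that of Itgav 67.33% and 24, and that of Itgb5 65.67% and 20. Vtn was the only gene of the 7 with a window that held TATAAA, as 2 overlapping matches on opposite strands in the run TTTATAAA, and 13.6% of all windows held that motif. The GC box GGGCGG was matched in Itgav, Itgb1, Itgb5 and Plaur and in 35.7% of all windows. Plaur also held TGACTCA, a match to the AP-1 motif TGANTCA, which was in 7.81% of all windows. CCAAT was matched in Itgb8 and in 37.4% of all windows, and the HNF1 motif in none of the members' windows and 0.00913% of all. That exact motif was in only 3 of 32851 windows, so its absence from the members' windows says nothing about looser HNF1 sites. The E-box had 2 matches in the Vtn window, none in that of Itgb1 and 3 in the Itgb6 window shown. That Itgb6 window held none of the other 5 motifs, and neither did a second Itgb6 window at another annotated start. A match describes letters at any distance from the annotated start, and not a bound site or a working promoter element.

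The libraries held 31019500 to 34041901 gene counts. The targeted gene Trip12 had 29.0, 22.3 and 26.4 normalised CPM in the controls, numbered 1, 2 and 3, against 14.4, 14.7 and 12.98 in the knockouts. The groups did not overlap (log2 fold change -0.89, SE 0.14, adjusted p = 0.0256 in edgeR's quasi-likelihood test). That call was lost with library totals (log2 fold change -0.49) and in 5 of the 6 fits that left out 1 library. Without control replicate 2, control replicate 3, knockout replicate 1, knockout replicate 2 or knockout replicate 3, the adjusted p was 0.0676, 0.0883, 0.126, 0.0803 or 0.140 in the same edgeR test. Trip12 counts cover the whole gene, which Fbxo36 overlaps on the other strand in the annotation, and do not show which exons were removed. The 10 acinar markers summed to between 353360 and 531190 CPM in every library, so the labelled cell type was present throughout. Summed endothelial markers were highest in replicate 1 of both groups, at 111 CPM in control and 133 CPM in knockout, against 25.4 to 48.4 in the other 4 libraries. Control replicates 2 and 3 had 2118 and 2440 counts of Xist and at most 2 of each of 4 Y-linked genes, whereas control replicate 1 and all 3 knockouts had at most 5 counts of Xist. Ddx3y, one of the Y-linked genes, had 546 counts in control replicate 1 and 758, 842 and 756 in the knockouts. The labels give no sex. Every Xist-high library was a control, so this split and the genotype are partly confounded. The Xist covariate in the fits below marks this split. Where a value could rest on this split, the control library with few Xist counts is given by itself.

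In control acinar preparations, Vtn was by far the most abundant of the 9. Its level per length, in normalised CPM per kb of exon, averaged 69.3 ± 17.4 (SD, n = 3), ahead of Itgb1 at 12.3 ± 0.622, Itgb5 at 2.15 ± 0.371 and Itgav at 0.470 ± 0.0430. These 4 did not overlap one another in any control library. Below them came Plau at 0.327 ± 0.143, Plaur at 0.187 ± 0.246, Itgb6 at 0.0944 ± 0.0202, Itgb3 at 0.0875 ± 0.146 and Itgb8 at 0.0820 ± 0.0425. Neighbours in this lower order overlapped, and so did Itgav and Plau. Among 21927 protein-coding genes, Vtn ranked between 134 and 171 by level per length in the 3 control libraries.

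**Figure D1:**
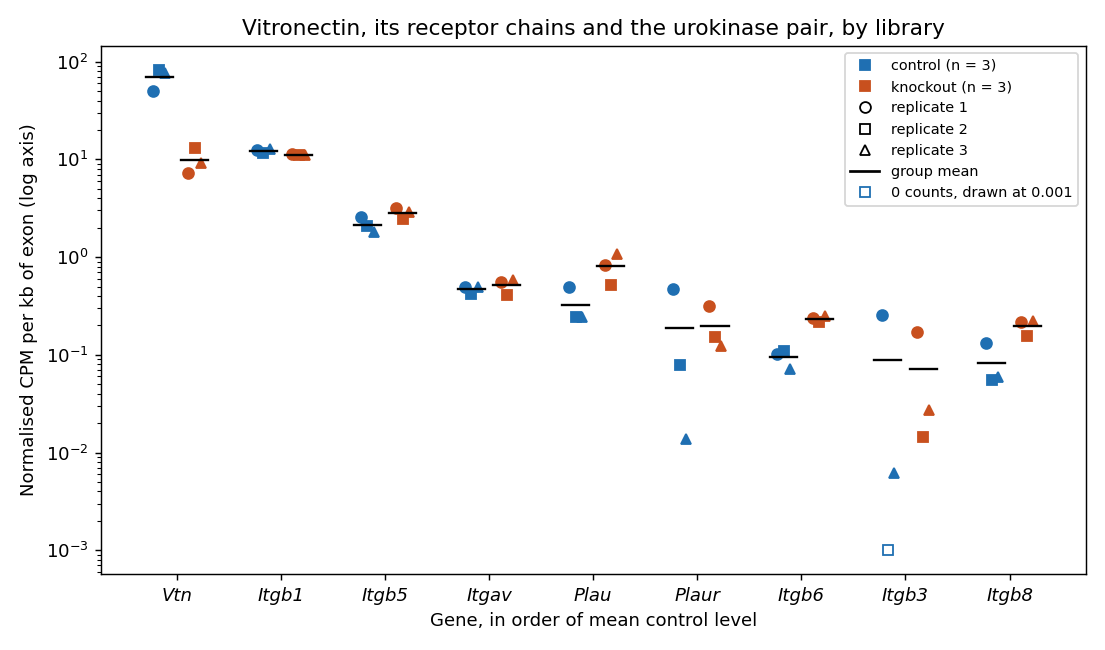
Normalised CPM per kb of exon on a log axis for the 9 genes, with controls in blue, knockouts in orange, a symbol for each replicate and a bar at each group mean; an open symbol marks 0 counts. Vtn lies at 49.6 or above in the controls and at 13.04 or below in the knockouts, while Itgb1 stays between 11.1 and 12.8 in all 6 libraries.

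All 3 knockout libraries held less Vtn than any control. The controls, in the order of their replicate numbers 1, 2 and 3 as throughout, had 3194, 4068 and 4253 counts, against 553, 927 and 700 for the knockouts. In normalised CPM the controls stood at 100.6, 167 and 155, against 14.8, 26.5 and 18.8 for the knockouts. The lowest control thus lay well above the highest knockout, though the controls themselves ran from 100.6 to 167. The means were 141 ± 35.3 and 20.02 ± 5.92 (SD, n = 3), so that control was 7.03-fold above knockout.

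The fit put the log2 fold change of Vtn at -2.81 (SE 0.28). Within the numbered pairs 1 to 3 the log2 difference, knockout minus control, was -2.76, -2.66 and -3.04. Its rank by level per length among protein-coding genes lay between 615 and 1076 in the knockouts. There Vtn no longer stood clear of its main receptor chain: its knockout levels were 7.30, 13.04 and 9.25 CPM per kb, against 11.3, 11.1 and 11.2 for Itgb1.

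The control with few Xist counts, replicate 1, had the lowest Vtn of the controls, and it was 5.03-fold above the knockout mean. With the Xist-high libraries as a covariate the log2 fold change was -2.33, a fit that rests on that control alone. Without knockout replicate 3 it was not called, at a log2 fold change of -2.77.

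Transcripts of hepatocytes, the main source of plasma vitronectin, were examined beside it. Of 23 hepatocyte markers, Apoh, Fgb and Fgg, a plasma glycoprotein and 2 fibrinogen chains, had 0 counts in all 6 libraries. A count of 0 allows at most 0.0804 to 0.123 CPM in a library, counting error only. Fga and Apob reached at most 1 and 7 counts, while Vtn had 553 or more in each library. The marker sum was 60.5 to 66.7 CPM in control and 70.7 to 86.2 in knockout, and its members differed in direction. Alb, the liver's main plasma protein, had 60, 60 and 45 counts in the controls against 222, 106 and 292 in the knockouts. Averaged over both groups, Ttr and Itih4 were the most abundant of the list, followed by Ambp and Itih2. Ttr, the thyroid hormone carrier that islets also make, fell with a log2 fold change of -1.08 (adjusted p = 0.0148 in edgeR's quasi-likelihood test). Itih4, Ambp and Itih2 were not called, at 1.03 (SE 0.52), 1.67 (SE 0.33) and -0.39 (SE 0.41). With the replicate number as a block 3 of the hepatocyte markers, Ambp, Alb and Trf, were called higher and 1, Ttr, lower. The part of hepatocyte RNA in the Vtn values was not tested.

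Pericytes also make vitronectin in some tissues. The 10 pericyte markers summed to 25.7, 8.59 and 7.49 CPM in the controls against 28.8, 11.4 and 16.2 in the knockouts, and the groups overlapped. In normalised CPM, acinar markers lay lower in knockout, at 353360 to 359636 against 399829 to 531190. So did 7 duct markers, at 111 to 125 against 133 to 185. Control was 1.35-fold and 1.32-fold above knockout in these 2 sums, against 7.03-fold for Vtn. Both gaps rest on the TMM scaling factors. These were 1.02, 0.785 and 0.809 in the controls against 1.19, 1.12 and 1.16 in the knockouts. With library totals, which leave these factors out, the groups overlapped in both sums. Vtn stayed at a log2 fold change of -2.38 with library totals. The most abundant acinar markers were Ctrb1 and Pnlip, a protease precursor and a lipase, with log2 fold changes of -0.33 and -0.50. Those of duct were Muc1, a mucin, and Epcam, an epithelial adhesion molecule, at -0.75 and 0.49. None of the 4 was called, and with the block Muc1 was called lower and Epcam higher. Neither list was uniform in direction. Of the 10 acinar markers 9 lay below 0 and 1 above, and of the 7 duct markers 3 lay below and 4 above. The acinar marker above 0 was Rbpjl, at 1.24 (SE 0.26), without overlap between the groups. It was not called, but with the block it was called higher and 2 other acinar markers lower. The part of pericyte, acinar or duct cells in the Vtn values was not tested. In such bulk samples fewer cells of a type and less RNA per cell cannot be told apart.

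The genes beside Vtn had smaller fitted differences. In the GRCm38 annotation 8 protein-coding genes lie within 50 kb of it, of which 7 were tested. None was called by edgeR's quasi-likelihood test or by limma-voom, against 0.945% of all tested genes in the edgeR test. At an unadjusted p under 0.05 there was 1, Ift20, a carrier of cargo to the cilium, against 16.7% of all tested genes in either direction. Ift20 was also called lower by DESeq2. With so few genes, nothing is read from these counts. Ift20 had a log2 fold change of -0.61 (SE 0.19, adjusted p = 0.172 in edgeR's quasi-likelihood test), and it was called with the replicate block (adjusted p = 0.0238). Sarm1, an NAD-cleaving enzyme of axon degeneration on the opposite strand and next to Vtn, had a log2 fold change of -0.51 (SE 0.57). Sebox, a homeobox gene next to it on the other side, had 5, 0 and 1 counts in control and 0 in every knockout, too few to test. Slc46a1, the intestinal folate carrier, had -0.42 (SE 0.19), Tmem199 -0.23, Poldip2 -0.15, Tnfaip1 0.21 and Tmem97 0.21. With library totals Tmem97 was called higher (log2 fold change 0.62), and Slc46a1, Tmem199 and Poldip2 turned above 0. With the Xist covariate Tmem199 was at 0.27, Poldip2 at 0.02 and Tnfaip1 at -0.20, and without control replicate 2 Sarm1 was at 0.03. No annotated gene overlaps Vtn in that annotation.

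**Figure D2:**
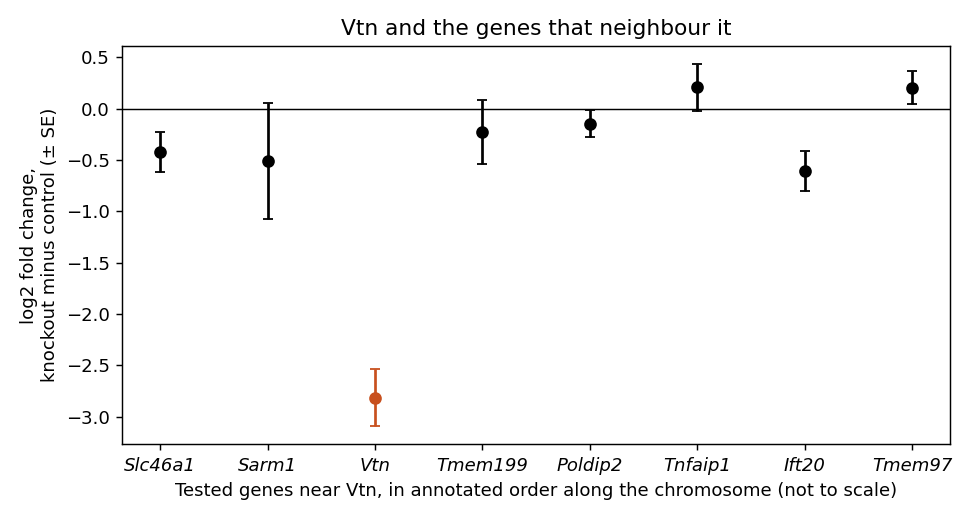
Fitted log2 fold change, knockout minus control, with its standard error for Vtn and the 7 tested genes near it, in annotated order along the chromosome and not to scale. Vtn lies at -2.81, and the neighbours lie between -0.61 and 0.21.

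Among the receptor chains, Itgav, the shared alpha chain, was at a like level in both groups with TMM factors. It had 5.29, 4.52 and 5.34 normalised CPM in the controls against 6.004, 4.43 and 6.25 in the knockouts. The groups overlapped, and the log2 fold change was 0.14 (SE 0.18). With library totals it was 0.55, a scaling that moved the median of all genes by 0.41. The annotation places an antisense transcript and a pseudogene within Itgav, and counts taken without strand do not separate reads in exons they share. Set against Itgav per length, Vtn was 101, 196 and 153 times as high in the controls and 13.1, 31.7 and 15.9 times in the knockouts.

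Itgb1, the beta chain common to most integrins and the most abundant receptor chain here, had 50.8, 47.3 and 52.2 CPM in the controls against 46.3, 45.4 and 45.5 in the knockouts. The groups did not overlap, yet the gap was small, with a log2 fold change of -0.13 (SE 0.12). Its direction depended on scaling, since scaling by library totals gave 0.28. That scaling moved the median of all genes by 0.41, so that relative to it Itgb1 was again below the median gene.

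Itgb5, whose chain forms the classical vitronectin receptor of epithelial cells with alpha-v, had 9.04, 7.39 and 6.43 CPM in the controls against 11.3, 8.76 and 10.3 in the knockouts. Control replicate 1 lay above knockout replicate 2, so the groups overlapped, while in each numbered pair the knockout was the higher. The log2 fold change was 0.41 (SE 0.17). With the Xist covariate it was 0.16.

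Itgb6 and Itgb8, whose chains with alpha-v bind and release latent TGF-beta, were low throughout and higher in knockout. Itgb6 had 23, 19 and 14 counts in the controls against 63, 54 and 66 in the knockouts, or 0.724, 0.780 and 0.509 CPM against 1.69, 1.54 and 1.77. Every knockout lay above every control, by 2.48-fold in the means (log2 fold change 1.31, SE 0.36). Counts from the forward orientation alone gave 0.88 and those from the reverse 1.73.

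Itgb8 had 46, 15 and 18 counts in the controls against 89, 60 and 91 in the knockouts, or 1.45, 0.616 and 0.654 CPM against 2.39, 1.71 and 2.44. Every knockout again lay above every control, but control replicate 1 came close to knockout replicate 2. The means differed 2.40-fold (log2 fold change 1.25, SE 0.41). Against control replicate 1 alone the knockout mean was 1.504-fold higher for Itgb8 and 2.30-fold higher for Itgb6. With the Xist covariate the log2 fold change of Itgb8 was 0.59.

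Itgb3, the chain of the platelet and endothelial vitronectin receptor, was near 0 counts in 4 of the 6 libraries. It had 48, 0 and 1 counts in the controls against 38, 3 and 6 in the knockouts. A count of 0 in control replicate 2 allows up to 0.123 CPM. The high library of each group was replicate 1, in which the endothelial markers were highest too; the part of endothelial RNA in this was not tested. Of 6 platelet markers, Gp1bb and Treml1 had 0 counts in every library and the sum was at most 1.42 CPM.

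Shares among the 5 beta chains do not depend on the scaling between libraries. Their summed level per length does depend on it. With TMM factors that sum was 14.7 ± 0.830 CPM per kb in control and 14.6 ± 0.589 in knockout (SD, n = 3). The groups overlapped in this sum. Itgb1 held 80.4%, 83.8% and 86.8% of it in the controls against 74.8%, 79.6% and 76.7% in the knockouts. Itgb5 held 16.4%, 15.0% and 12.3% in the controls against 21.02%, 17.7% and 19.9% in the knockouts. The groups did not overlap in either share. Itgb6 held 0.646% ± 0.154 in control and 1.61% ± 0.0876 in knockout, and Itgb8 held 0.550% ± 0.256 and 1.35% ± 0.214. Itgb5, Itgb6 and Itgb8 thus held larger shares in each knockout than in any control, and Itgb1 a smaller one. Control replicate 1, with few Xist counts, came close to knockout replicate 2 for Itgb1 (80.4% against 79.6%) and Itgb5 (16.4% against 17.7%). Its Itgb6 and Itgb8 shares were 0.658% and 0.846%, against 1.55% and 1.11% in knockout replicate 2.

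**Figure D3:**
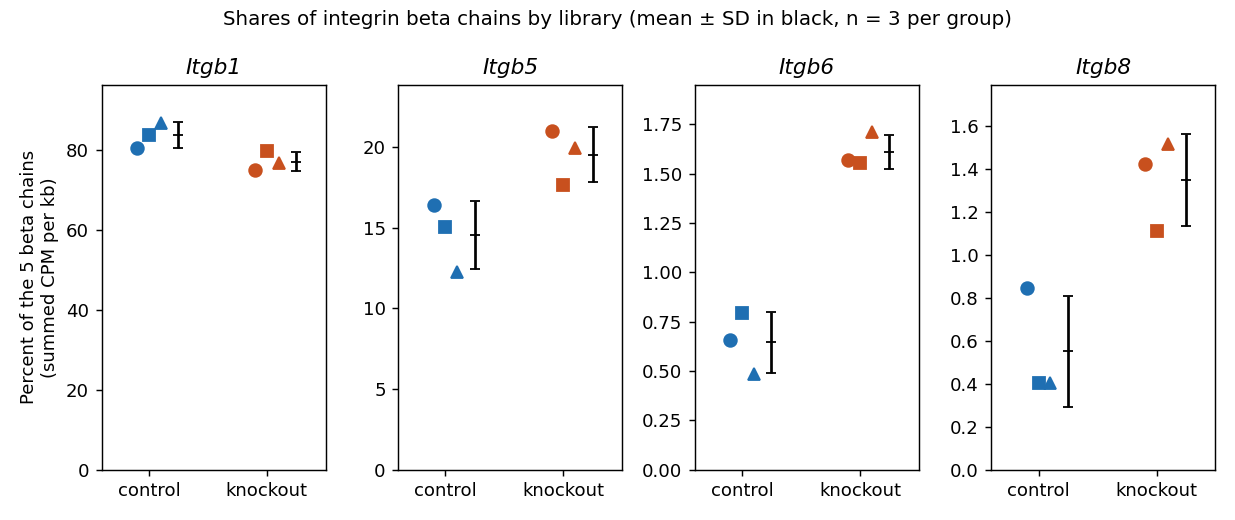
Share of each of 4 integrin beta chains in the summed CPM per kb of 5 (Itgb3, at 1.65% or less, is not drawn), for controls in blue and knockouts in orange; circles, squares and triangles are replicates 1, 2 and 3, and black marks show mean ± SD. Itgb1 lies between 74.8% and 79.6% in knockout against 80.4% to 86.8% in control, and the other 3 lie higher in knockout.

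The urokinase pair was low in all libraries. Plau, the protease, had 37, 14 and 16 counts in the controls against 74, 43 and 94 in the knockouts, or 1.17, 0.575 and 0.582 CPM against 1.98, 1.23 and 2.52. Every knockout lay above every control, though control replicate 1 came close to knockout replicate 2. The means differed 2.47-fold (log2 fold change 1.29, SE 0.44), and the value with the Xist covariate was 0.71.

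Plaur, the receptor, had 39, 5 and 1 counts in the controls against 31, 14 and 12 in the knockouts. As for Itgb3, replicate 1 was the highest in both groups, and the groups overlapped. The fitted log2 fold change was 0.05 (SE 0.99). It was 2.07 without control replicate 1 and -1.24 with the Xist covariate, and its sign changed in 4 of 16 alternative fits. Summed leukocyte markers were 107, 27.1 and 22.6 CPM in the controls against 76.9, 19.8 and 74.2 in the knockouts, and leukocytes are known to carry this receptor. Their part in the Plaur values was not tested.

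In the fit over 13115 genes 1 of the 8 tested members was called at an adjusted p under 0.05, Vtn, on the lower side, against 0.945% of all tested genes (0.465% higher and 0.48% lower). With the replicate number as a block there were 2, Vtn and Itgb8 (blocked log2 fold change 1.32), against 5.99% of all genes (3.4% higher and 2.58% lower). The groups did not overlap in 5 of the 8, namely Vtn, Itgb1, Itgb6, Itgb8 and Plau, against 22.9% of all tested genes. The members' median log2 fold change was 0.27, beside 0.02 over all tested genes. As the set was put together with this contrast known, nothing is read from these counts. Itgb8 was also called without control replicate 1 and Itgb6 with library totals, and no member was called without knockout replicate 3.

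**Figure D4:**
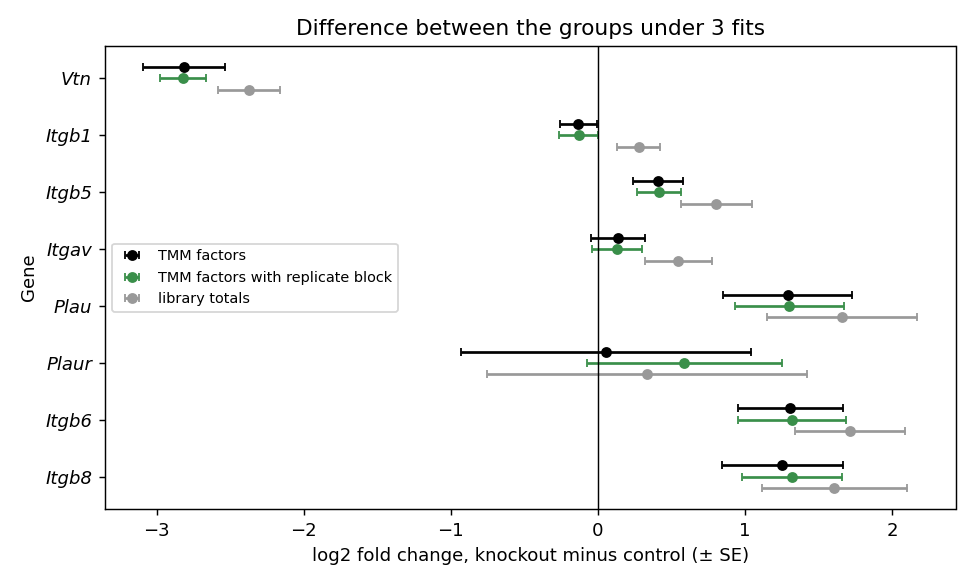
Fitted log2 fold change, knockout minus control, with its standard error for the 8 tested genes under TMM factors, TMM factors with the replicate block, and library totals. Library totals shift all genes upward, which takes Itgb1 from -0.13 to 0.28, while Vtn stays at -2.38 or below in all 3 fits.

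The wider plasminogen system, 11 genes fixed beside the members, held none that was called. Of these, 7 were tested, with 0 called by edgeR, DESeq2 or limma-voom, 0 at an unadjusted p under 0.05 and a median log2 fold change of 0.36. Over all tested genes 8.45% were higher and 8.27% lower at that unadjusted p, and the median was 0.02. The list's median was -0.34 with the Xist covariate. Leaving out control replicates 1, 2 or 3 gave 1.24, 0.07 or 0.05, and leaving out knockout replicates 1 or 2 gave -0.00064 or 0.70. Plg, the plasminogen precursor, and Serpinb2, the urokinase inhibitor PAI-2, had 0 counts in all 6 libraries. The 4 most abundant were Lrp1, the clearance receptor of protease-inhibitor complexes, Anxa2, a plasminogen-binding annexin, Serpine2 and Plgrkt. Their log2 fold changes were 0.71 (SE 0.83), 0.30 (SE 0.60), 0.08 (SE 0.25) and 0.14 (SE 0.31).

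Among 20 other integrin chains 15 were tested and none was called by edgeR's quasi-likelihood test or by limma-voom, with 2 at an unadjusted p under 0.05, both higher, against 16.7% of all tested genes in either direction. The median log2 fold change was 0.11, and it ran from -0.32 with the Xist covariate and -0.13 without control replicate 2 to 0.67 without control replicate 1. Itga6, the alpha chain of laminin receptors, was the most abundant, at 40.4 CPM ± 3.54 in control and 56.8 ± 4.78 in knockout (SD, n = 3). Its log2 fold change was 0.49 (SE 0.14, adjusted p = 0.133 in edgeR's quasi-likelihood test), and it was called by DESeq2. Its partner Itgb4 was at 29.2 ± 9.48 CPM in control and 29.1 ± 1.40 in knockout (SD, n = 3). Itga1, a collagen receptor chain, and Itga3, a laminin receptor chain, had log2 fold changes of 0.11 (SE 0.23) and 0.26 (SE 0.14).

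Of 29 other matrix ligands of integrins 25 were tested, and 1 was called, Lamb3, a chain of the basement membrane laminin-332, against 0.945% of all tested genes. Lamb3 had 8.85, 8.503 and 9.74 CPM in the controls against 19.4, 18.7 and 24.1 in the knockouts. It rose with a log2 fold change of 1.20 (SE 0.14, adjusted p = 0.00995 in edgeR's quasi-likelihood test), and the groups did not overlap. At an unadjusted p under 0.05 there were 2 ligands higher and 1 lower, against 8.45% and 8.27% of all tested genes. The call of Lamb3 was lost without control replicate 2 (adjusted p = 0.0815), without knockout replicate 3 (adjusted p = 0.0511) and with the Xist covariate (adjusted p = 0.122 in the same edgeR test).

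With the block 6 ligands were called higher and none lower, against 5.99% of all tested genes. These were Lamb3, osteopontin (Spp1), thrombospondin 1 (Thbs1), the laminin chains Lama4 and Lamb2, and the matricellular protein Ccn1. Their blocked adjusted p lay between 0.000662 and 0.0232 in edgeR's quasi-likelihood test. Spp1 had 62.3 CPM ± 5.85 in control and 131 ± 46.1 in knockout, without overlap, and Thbs1, Lama4, Lamb2 and Ccn1 overlapped between the groups. With the Xist covariate none was called, and Lamb2 and Ccn1 turned to -0.01 and -0.07. The median over the list was 0.55, and 21 of 25 lay above 0, as did 52.4% of all tested genes. That median was -0.22 with the Xist covariate, 0.13 without control replicate 2 or knockout replicate 1, 0.32 without control replicate 3 and 1.16 without control replicate 1. Fibroblast markers summed to 78.8, 20.5 and 31.1 CPM in the controls against 96.8, 21.6 and 94.5 in the knockouts, higher in knockout in each of the 3 numbered pairs, and their part in these ligands was not tested. Agrn, Hspg2 and Lama5, the other abundant ligands, had log2 fold changes of 0.16, 0.28 and 0.60, and of -0.22, -0.37 and 0.17 with the Xist covariate.

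The machinery that ties integrins to actin, 28 genes of which 27 were tested, held no call by edgeR, DESeq2 or limma-voom, with 0 also under the block, 3 higher and 3 lower at an unadjusted p under 0.05, against 8.45% and 8.27% of all tested genes. The median log2 fold change was 0.06, and it was -0.08 with the Xist covariate, -0.03 without knockout replicate 1 and 0.21 without control replicate 1. Its most abundant members were Tns1, a tensin, at 0.45 (SE 0.16), Actn4, an actin crosslinker, at 0.39 (SE 0.18), Crk, an adaptor, at -0.09 (SE 0.15) and Tln1, the talin that activates integrins, at 0.01 (SE 0.21). With library totals 3 genes of the list, Tns1, Src and Bcar1, were called higher, and Crk was at 0.32.

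Transcription factors shared by liver and pancreas were listed because Vtn is a liver-type gene. Of 14 factors 13 were tested and none was called by edgeR's quasi-likelihood test or by limma-voom, with 2 higher and 3 lower at an unadjusted p under 0.05, against 8.45% and 8.27% of all tested genes. Nr1h4, the bile acid receptor FXR, had 2.33, 5.79 and 5.67 CPM in the controls against 0.697, 1.34 and 0.617 in the knockouts. Its log2 fold change was -2.37 (SE 0.44, adjusted p = 0.0535 in edgeR's quasi-likelihood test). It was called lower with the block (adjusted p = 0.00158) and by DESeq2, and its value was -1.40 with the Xist covariate. Like Vtn it was lowest among controls in replicate 1. Gata4, Nr5a2, Cebpa and Foxa2, the most abundant factors, had log2 fold changes of 0.21, -0.31, -0.48 and -0.27, and with library totals Gata4 was called higher while Nr5a2 and Foxa2 turned above 0.

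The genes whose pattern over the 6 libraries was most like that of Vtn were sought among 10369 tested protein-coding genes of at least 1 CPM on average. By Pearson correlation of log2 CPM they were Galnt1, which starts mucin-type O-glycans (0.999), Erlec1, an endoplasmic reticulum lectin (0.996), Tyro3, a receptor tyrosine kinase (0.996), Cux1, a homeobox factor (0.995), and Zfp91, a zinc finger protein (0.995). These describe 6 points that fall into 2 groups, and genes with smaller differences can match as closely. Galnt1 had 58.0, 67.6 and 64.7 CPM in the controls against 29.9, 35.7 and 31.5 in the knockouts, and Tyro3 had 6.49, 7.89 and 8.18 against 3.08, 3.65 and 3.54. The log2 fold changes of the 5 were -0.97, -0.62, -1.13, -0.59 and -0.37, all smaller in size than that of Vtn. Among the members, Itgb6, Itgb8 and Plau ran the other way, with correlations to Vtn of -0.954, -0.933 and -0.914 over the same 6 libraries.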

How the data were processed

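RNA was extracted with Trizol, enriched for poly-A RNA and primed with random hexamers, per the labels' protocols. The authors deposited raw, whole-number counts per Ensembl gene for each library, without regard to strand and for each orientation. STAR 2.7.10a and the mouse build GRCm39 are named in the submitters' processing notes, and the annotation release is not given in the sources used here. The 4 rows outside genes were left out; multimapping reads were 21.6% to 28.4% and unmapped reads 9.70% to 13.02% of a library. The unstranded counts were used, because the forward orientation held 50.1% to 50.3% of both. Names, exon lengths and the order of neighbouring genes came from GENCODE M21 on GRCm38, which held 94.08% of the 55414 identifiers. No position was transferred between builds.

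TMM factors turned the deposited counts into normalised CPM and CPM per kb of exon. The test was the quasi-likelihood F test of edgeR 4.0.16 (R 4.3.3, filterByExpr, robust fit, Benjamini-Hochberg over 13115 genes, call at an adjusted p under 0.05). The fit was tested on simulated data. A standard error is the log2 fold change divided by the square root of F. Alternatives were other scalings, filters, tools (DESeq2 1.42.0, limma 3.58.1), strands, covariates and left-out libraries. Deviations from the group means correlated at 0.63, 0.455 and 0.285 in the same-numbered pairs 1, 2 and 3 and between -0.496 and 0.21 in other pairs, so the numbers were taken to pair the libraries. The labels do not say what the numbers stand for. The pairing was thus judged on the same counts that the block fits use, and in pairs 2 and 3 only the control was Xist-high. The closest 2 libraries differed beyond sampling noise, with a chi-square per degree of freedom of 26.3.

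The members, the lists and the tests were chosen with earlier results of these data known. Named genes were the members, Trip12, the called list genes (with or without the replicate block) and up to 4 uncalled genes of the highest mean CPM per list, the genes annotated within 50 kb of Vtn, and the 5 genes most like Vtn. For a marker list whose sum in normalised CPM moves with Vtn the rule names the 2 most abundant genes. Other marker genes, Src, Bcar1 and the list genes at 0 were named after their values were seen. One gene of the plasminogen list is not reported here.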

Additional observations from a re-analysis of the deposited data

How the results depend on the processing

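Vtn lay below 0 in all 18 alternative fits, between -3.07 and -2.33. It was -2.38 with library totals and -2.33 with the Xist covariate, and within the spread of replicates elsewhere, from -3.07 to -2.64 without single libraries. The Trip12 value of -0.89 was not called with library totals (-0.49), with the Xist covariate (-1.05) or without pair 1 (-0.84), and ran from -0.98 to -0.82 without single libraries. The count of 124 called genes became 1519 with library totals (1442 higher, 77 lower), 850 without a filter, 210 at 10 or more counts in every library, 593 with DESeq2, 785 with the replicate block, 21 with the Xist covariate and 70 without pair 1, and ran from 20 to 461 without single libraries. The lowest was without control replicate 2 and the highest without control replicate 1. The members called, 1, became 2 with library totals and with the replicate block, and 0 to 2 without single libraries. The listed genes called, 1 of 87, became 10 with library totals, 6 without a filter, 2 at 10 or more counts, 4 with DESeq2, 2 with reverse-strand counts, 7 with the replicate block, 0 with the Xist covariate and 2 without pair 1, and 0 to 3 without single libraries. The Xist covariate fit rests on 1 control, and the cause of these moves was not tested. Library totals raised the median of all genes by 0.41. Vtn, Trip12 and Lamb3 kept their sign in every alternative, whereas Lamb2 and Ccn1, called with the replicate block, were at -0.01 and -0.07 with the Xist covariate. Leaving out pair 1, the libraries with the most endothelial markers, was chosen after seeing the data. Itgb3, Plaur, Itgb6, Itgb8 and Plau rest on fewer than 100 counts a library, and the smallest difference detectable at that depth was not measured.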
